A study of Mus musculus with 30 samples.

Results

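The 10 genes described here encode the 5 subunits of the transcription factor NF-kB (*Nfkb1*, *Nfkb2*, *Rel*, *Rela* and *Relb*) and 5 proteins that hold it back or tune it (*Nfkbia*, *Nfkbie*, *Nfkbiz*, *Bcl3* and *Tnfaip3*). They were chosen by name as parts of the pathway, by a rule that uses no measured value but with earlier results of these data known, out of 45317 genes in the deposited table, and all 10 passed the filter on low counts that left 11566 genes for testing. RNA had been sequenced from 8 populations of cells sorted from mice with a brain tumor. The mice were C57BL6.CCR2RFP/WT, in which 1 copy of *Ccr2* is replaced by a red fluorescent protein, and were 12 to 18 weeks old. Their tumor had grown for 30 days from GL261.BpalmGFP, a mouse glioma line that carries GFP in its membrane and can pass it to cells around it. All groups, blood included, came from such tumor-bearing mice, and 1 tumor line was used.

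Blood gave Ly6Chigh and Ly6Clow monocytes (mice 22, 23 and 24). The brain gave glioma monocytes (mice 22, 24 and 26), CCR2high macrophages and CCR2low macrophages (all 4 mice), each split into GFPpos cells, which had taken up tumor membrane, and GFPneg cells, which had not. The tissue field of the labels reads brain for every sample, and blood or brain was taken from the source names. A replicate is 1 population of 1 mouse, so the populations of a mouse share that animal. Brain cells had been freed with enzymes and a mechanical dissociator and blood cells had not, so the compartment and this preparation cannot be told apart in any comparison of brain with blood.

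NF-kB acts as a dimer of its subunits. In resting cells the IκB proteins, among them IκBα from *Nfkbia* and IκBε from *Nfkbie*, bind the dimers and keep them in the cytoplasm. When a cell meets microbial products, TNF or IL-1, the IκB kinase marks these inhibitors for destruction and the dimers enter the nucleus, where they switch on cytokine and chemokine genes together with the genes of their own inhibitors. *Nfkbiz* and *Bcl3* encode IκB proteins that work in the nucleus, and *Tnfaip3* encodes A20, a ubiquitin-editing enzyme that shuts off the signal upstream of the kinase. For short, *Nfkbia*, *Nfkbie*, *Nfkbiz*, *Bcl3* and *Tnfaip3* are called inhibitors here, whether their products hold NF-kB back or tune it. In monocytes and macrophages the pathway is known for driving the inflammatory response.

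Known to lie at the genes of NF-kB's own inhibitors are κB motifs, the sequences to which it binds. The starts of 4 of the 10 genes are shown, all from windows that held a match to the motif. They belong to the inhibitors *Nfkbia*, *Tnfaip3* and *Nfkbie* and to the subunit *Rel*. Each line holds the 250 bases before the start of transcription from RefSeq on GRCm38.p6, read on the strand of the gene, and the capitals mark matches to the κB consensus motif on either strand. *Nfkbia* lies on the minus strand and its window is chr12:55492648-55492897. The window of *Tnfaip3* is chr10:19015411-19015660 on the minus strand, that of *Nfkbie* is chr17:45555450-45555699 on the plus strand, and that of *Rel* is chr11:23770970-23771219 on the minus strand.
Nfkbia: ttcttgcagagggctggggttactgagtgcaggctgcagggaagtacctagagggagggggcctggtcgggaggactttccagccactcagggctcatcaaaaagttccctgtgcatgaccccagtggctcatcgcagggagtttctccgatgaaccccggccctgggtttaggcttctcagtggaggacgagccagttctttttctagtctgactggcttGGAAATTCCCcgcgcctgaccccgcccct
Tnfaip3: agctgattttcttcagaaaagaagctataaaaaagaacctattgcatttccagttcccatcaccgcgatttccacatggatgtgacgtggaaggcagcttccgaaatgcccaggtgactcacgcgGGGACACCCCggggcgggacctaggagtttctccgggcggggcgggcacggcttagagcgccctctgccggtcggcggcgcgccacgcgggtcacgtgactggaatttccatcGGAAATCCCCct
Nfkbie: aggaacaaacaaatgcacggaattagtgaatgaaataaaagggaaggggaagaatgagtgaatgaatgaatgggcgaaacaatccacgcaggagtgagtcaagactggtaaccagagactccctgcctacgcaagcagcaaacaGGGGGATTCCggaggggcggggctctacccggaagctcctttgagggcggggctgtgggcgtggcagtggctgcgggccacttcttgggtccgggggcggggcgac
Rel: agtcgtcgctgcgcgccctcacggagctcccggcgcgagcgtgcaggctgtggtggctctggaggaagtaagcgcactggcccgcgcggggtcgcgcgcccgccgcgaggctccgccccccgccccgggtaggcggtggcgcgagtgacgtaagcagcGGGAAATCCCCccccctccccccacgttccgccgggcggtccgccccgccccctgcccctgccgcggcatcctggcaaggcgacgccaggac

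The match in *Nfkbia* began 29 bases before the start, and that in *Nfkbie* began 106 bases before it. *Tnfaip3* held 2 matches, which began 125 and 12 bases before the start, and *Rel* held 2 that overlap each other, from 92 and 91 bases before it. Windows were at hand for 7 of the 10 genes, *Nfkb2* with 3 starts and *Tnfaip3* with 2. All 3 windows of *Nfkb2* held a match, the first of them 3, of which 2 overlap. The windows of *Rela* and *Bcl3* and the other window of *Tnfaip3* held none. Thus 7 of 10 windows held at least 1 match, beside 7.25% of all 32851 windows of this length. By gene, 5 of the 7 held a match in at least 1 window. A match is a description of the letters, not evidence of binding. *Nfkb1*, *Relb* and *Nfkbiz* were not searched.

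By GENCODE vM21 on GRCm38, the gene of *Nfkb1* spans chr3:135584655-135691547 and that of *Nfkbiz* chr16:55811375-55838899. *Rela* (chr19:5637483-5648130) and *Nfkb2* (chr19:46304320-46312385) lie on one chromosome, and *Relb* (chr7:19606217-19629438) and *Bcl3* (chr7:19808462-19822770) lie on another. Exons of other genes on the opposite strand overlap 18.1% of the exonic bases of *Nfkb2* and 6.51% of those of *Bcl3*. The library kit does not mark strand, so reads from those stretches cannot be assigned to 1 gene. How many reads of *Nfkb2* and *Bcl3* come from them was not measured, and both counts are uncertain for that reason.

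The 28 replicates held 1553616 to 5689644 reads on genes, with a median of 2140229.5. Values are given as CPM, the read count scaled to 1000000 reads of the TMM-adjusted library size, and a difference is called at an adjusted p (edgeR's quasi-likelihood test, Benjamini-Hochberg over all 11566 genes) under 0.05. Markers fitted the labels of the sorts. *Ly6c2* averaged 1176 CPM in Ly6Chigh and 123 CPM in Ly6Clow monocytes, *Spn* (CD43) 50.9 and 345 CPM, and the macrophage gene *Mertk* was at or below 2.3 CPM in every blood replicate and averaged 75.5 to 184 CPM in the brain populations. Mean *Ccr2* was 243 CPM in GFPneg CCR2high and 72.2 CPM in GFPneg CCR2low macrophages. In the GFPpos pair it was 135 and 64.4 CPM, and the replicates overlapped (56.6 to 201 and 33.9 to 111 CPM). No gene tested was called between CCR2high and CCR2low macrophages in either GFP state.

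A pair of libraries of 1 replicate stood apart from each other. GFPpos glioma monocytes of mouse 22 had been sequenced as 2 libraries that both passed the authors' quality rule and were summed here. Scaled to 1000000 reads on genes, *Nfkbia* was 1374 in the first and 172 in the second, *Nfkb1* was 8.33 and 94.8, and *Nfkb2* was 95.8 and 19.2. Log2 fold changes of the fit over all populations that use this replicate are therefore given with each library alone where a gene is named. Calls of GFPneg brain cells against blood also depended on this choice. With the first library alone, *Nfkb1* lost its call in glioma monocytes against Ly6Chigh monocytes (adjusted p = 0.0713 by edgeR). With the second alone, *Nfkb2* lost its call there against Ly6Clow monocytes (adjusted p = 0.0701). That of *Nfkbia* was lost in CCR2low macrophages against both blood populations (adjusted p = 0.0635 and 0.0687) and in CCR2high against Ly6Clow monocytes (adjusted p = 0.0506). A further library, of Ly6Clow monocytes of mouse 23, failed the authors' rule and was left out, and that replicate rests on its other library. The library used also stood apart, with 6475 genes at 5 or more reads and 13.3% of its reads on spike-in RNAs, beside 6969 to 12340 genes and 0.284% to 8.68% in the other libraries used. It gave the 0 of *Tnfaip3* and *Bcl3* and the lowest blood values of *Nfkbia*, *Rel* and *Relb*, and without it 4, 2 and 2 of the 10 genes were called in GFPneg glioma monocytes, CCR2high and CCR2low macrophages against Ly6Clow monocytes (6, 4 and 4 with it). *Nfkb1* and *Tnfaip3* kept their calls in all 3 without it. With the failed library added, 1 call was lost, that of *Nfkbia* in GFPneg CCR2low macrophages against Ly6Clow monocytes (log2 fold change 1.03, adjusted p = 0.0510 by edgeR). Mouse 26 gave brain cells and no blood cells, and it was the highest replicate for *Nfkbia* in 6 of its 6 brain populations, and for *Rel*, *Nfkbiz* and *Tnfaip3* in 5 of 6. Its part in the comparisons is given by leaving it out.

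**Figure D1:**
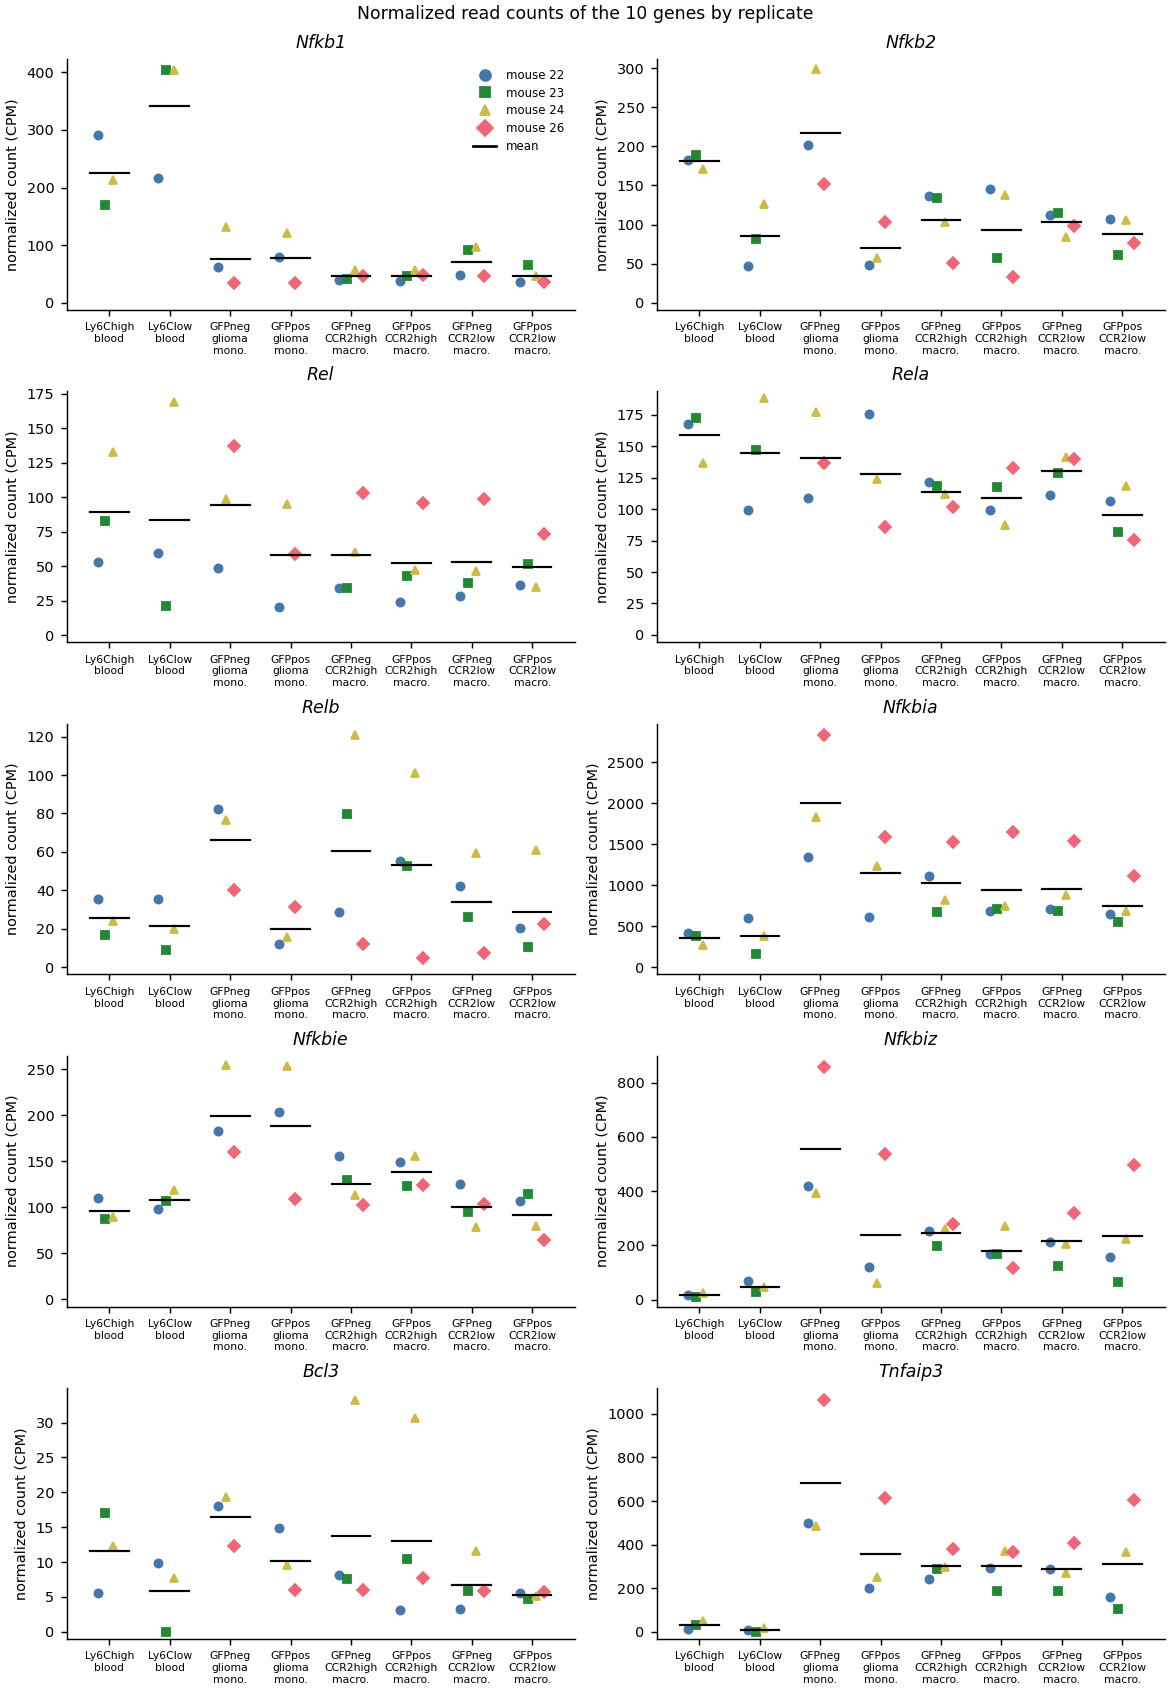
Each panel plots the normalized read count (CPM, linear axis from 0) of 1 gene in the 8 populations, with 1 point per replicate, colored by mouse, and a line at the mean. On this TMM scale *Tnfaip3* and *Nfkb1* separate all 6 blood replicates from all 22 brain replicates, in opposite directions, and the points of mouse 26 top the panel of *Nfkbia* in each brain population.

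Over all 6 blood and 22 brain replicates, the inhibitors *Tnfaip3*, *Nfkbiz* and *Nfkbia* had their higher levels in the brain and the subunit *Nfkb1* in the blood. *Tnfaip3* ran from 0 to 49.5 CPM in blood and from 105 to 1065 CPM in brain, with no overlap. *Nfkb1* ran from 170.5 to 404 CPM in blood and from 33.6 to 132 CPM in brain, again with no overlap, and across all genes tested 6.33% separated blood from brain in this way (4.75% with brain higher and 1.58% with brain lower). Both separations hold for TMM-scaled values. Scaled to the spike-in RNAs, *Tnfaip3* reached 144 CPM in blood and began at 34.1 CPM in brain, and *Nfkb1* ran from 19.8 to 619 CPM in blood and from 14.4 to 121 CPM in brain, so both overlapped. *Nfkbiz* overlapped only narrowly, with a highest blood value of 69.3 CPM and a lowest brain value of 62.7 CPM. *Nfkbia* ran from 167 to 605 CPM in blood and from 554 to 2837 CPM in brain. The other 6 genes overlapped broadly between the compartments. In such bulk samples, fewer cells that carry a transcript and less of it per cell cannot be told apart.

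Among the subunits, *Nfkb1*, which encodes p105 and its product p50, fell in all 3 GFPneg brain populations relative to Ly6Chigh blood monocytes. Its values in Ly6Chigh monocytes were 291, 170.5 and 213 CPM in mice 22, 23 and 24. In GFPneg glioma monocytes they were 61.7, 132 and 33.6 CPM in mice 22, 24 and 26, so the highest brain replicate stayed below the lowest blood replicate. In GFPneg CCR2high macrophages they lay within 39.1 to 56.3 CPM over 4 mice, and in GFPneg CCR2low macrophages within 46.4 to 97.6 CPM. The log2 fold changes were -1.57 ± 0.44 (SE, adjusted p = 0.0163 by edgeR), -2.29 ± 0.41 (adjusted p = 0.000178) and -1.66 ± 0.40 (adjusted p = 0.00373), and every mouse with both populations showed the lower value in the brain (2 of 2, 3 of 3 and 3 of 3 mice). The call in glioma monocytes rested on single replicates: it was lost without glioma monocytes of mouse 22 (-1.48, adjusted p = 0.0695 by edgeR), those of mouse 26 (-1.25, adjusted p = 0.0916) or Ly6Chigh monocytes of mouse 22 (-1.40, adjusted p = 0.0680).

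*Nfkb1* was also lower in these brain populations than in Ly6Clow monocytes, where it measured 216, 404 and 404 CPM. The log2 fold changes were -2.17 ± 0.45, -2.90 ± 0.41 and -2.26 ± 0.41 for GFPneg glioma monocytes, CCR2high and CCR2low macrophages, all 3 called (adjusted p = 0.00111, 1.17e-05 and 0.000202 by edgeR). With spike-in scaling these were -0.92, -1.21 and -0.92 and none was called (adjusted p = 0.421, 0.234 and 0.368 by edgeR). By TMM, Ly6Clow monocytes had the highest mean of the 8 populations, 342 ± 109 CPM (SD, n = 3), and GFPneg CCR2high macrophages the lowest, 45.8 ± 7.51 CPM (n = 4). By spike-in scaling the order changed, with Ly6Chigh monocytes highest (369 CPM, Ly6Clow 170.4 CPM) and GFPpos glioma monocytes lowest (25.6 CPM).

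*Nfkb2*, the p100/p52 subunit of the alternative pathway, was called in 1 comparison. It measured 201, 298 and 152 CPM in GFPneg glioma monocytes of mice 22, 24 and 26 and 47.6, 82.1 and 126 CPM in Ly6Clow monocytes of mice 22, 23 and 24, without overlap, a log2 fold change of 1.35 ± 0.46 (adjusted p = 0.0404 by edgeR). That call was lost without glioma monocytes of mouse 22 (1.41, adjusted p = 0.0714 by edgeR) or mouse 24 (1.05, adjusted p = 0.174), and without Ly6Clow monocytes of mouse 22 (1.06, adjusted p = 0.155) or mouse 23 (1.30, adjusted p = 0.106). Ly6Chigh monocytes were close to each other, at 183, 189 and 171 CPM, and the difference from GFPneg glioma monocytes was 0.26 ± 0.45 on the log2 scale. GFPneg CCR2high and CCR2low macrophages averaged 106 and 103 CPM, below Ly6Chigh monocytes without overlap and in 3 of 3 mice each. Their log2 fold changes of -0.77 ± 0.42 and -0.82 ± 0.42 were not called (adjusted p = 0.225 and 0.188 by edgeR), and the latter was called when only these populations were fitted (-0.82, adjusted p = 0.0109).

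*Rela*, the p65 subunit with the main transactivating role, was the most even of the 10 genes. Its population means ran from 95.5 ± 20.5 CPM in GFPpos CCR2low macrophages (n = 4) to 159 ± 19.3 CPM in Ly6Chigh monocytes (n = 3), a ratio of 1.66, and the neighbors in this order overlapped in their replicates. GFPneg CCR2high macrophages (102 to 122 CPM) lay below Ly6Chigh monocytes (137 to 172 CPM) without overlap, as for 35.7% of all genes in either direction, and in 3 of 3 mice. GFPpos CCR2high (87.4 to 132 CPM) and CCR2low macrophages (75.3 to 119 CPM) also lay below them, while GFPneg CCR2low macrophages (111 to 141 CPM) overlapped. *Rel*, the c-Rel subunit of blood cells, had means of 49.1 to 94.7 CPM, a ratio of 1.93, and varied more between mice than between populations: in Ly6Clow monocytes alone its replicates were 59.4, 20.8 and 169 CPM. *Relb*, the partner of p52, had means of 19.7 to 66.3 CPM. GFPneg glioma monocytes held 82.3, 76.6 and 40.0 CPM of *Relb* and Ly6Chigh monocytes 35.4, 17 and 24.2 CPM, which do not overlap, yet the log2 fold change of 1.38 ± 0.85 was not called (adjusted p = 0.350 by edgeR). None of *Rel*, *Rela* and *Relb* was called in any of the 16 comparisons between populations. *Relb* alone was called under alternatives, in GFPneg glioma monocytes against Ly6Chigh monocytes when only these populations were fitted (1.39, adjusted p = 0.0257 by edgeR) and in GFPneg CCR2high macrophages against Ly6Clow monocytes without mouse 26 (1.84, adjusted p = 0.0481).

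Of the inhibitors, *Nfkbia* was higher in every GFPneg brain population than in either blood population. Ly6Chigh monocytes measured 418, 387 and 277 CPM in mice 22, 23 and 24, and Ly6Clow monocytes 605, 167 and 387 CPM. GFPneg glioma monocytes reached 1339, 1836 and 2837 CPM in mice 22, 24 and 26. GFPneg CCR2high macrophages held 1109, 677, 814 and 1524 CPM and GFPneg CCR2low macrophages 716, 685, 885 and 1542 CPM in mice 22, 23, 24 and 26, so that no brain replicate reached down to the blood replicates it was compared with. Against Ly6Chigh monocytes the log2 fold changes were 2.47 ± 0.47 (adjusted p = 0.000498 by edgeR), 1.52 ± 0.43 (adjusted p = 0.0147) and 1.41 ± 0.43 (adjusted p = 0.0211). Against Ly6Clow monocytes they were 2.38 ± 0.47, 1.42 ± 0.43 and 1.31 ± 0.43, also called (adjusted p = 0.000666, 0.0192 and 0.0289 by edgeR).

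The calls of *Nfkbia* in macrophages depended on single replicates, while its direction did not turn under any alternative run, and it was higher in 3 of 3 mice in both macrophage populations against Ly6Chigh monocytes. Against Ly6Chigh monocytes, the call in CCR2high macrophages was lost without their mouse 26 (1.23, adjusted p = 0.0581 by edgeR) or without Ly6Chigh monocytes of mouse 23 (1.5, adjusted p = 0.0602) or 24 (1.36, adjusted p = 0.0879), and that in CCR2low macrophages was lost without their mouse 26 (1.05, adjusted p = 0.0910) or without any one of the Ly6Chigh replicates (1.47, 1.40 and 1.25, adjusted p = 0.0553, 0.0734 and 0.111). Against Ly6Clow monocytes, both calls were lost without mouse 26 of the macrophages (1.16 and 0.98, adjusted p = 0.0634 and 0.108) or mouse 23 of the blood (1.03 and 0.94, adjusted p = 0.111 and 0.152). When mouse 26 was left out of all 6 brain populations at once, all 6 calls of *Nfkbia* held, with log2 fold changes of 2.14, 1.27 and 1.08 against Ly6Chigh and 2.04, 1.17 and 0.98 against Ly6Clow monocytes. That alternative was chosen after the data were seen.

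*Nfkbie*, the IκBε gene, rose in glioma monocytes and was not called in macrophages. Its values were 183, 255 and 160.0 CPM in GFPneg glioma monocytes of mice 22, 24 and 26, above the 87.9 to 110.1 CPM of Ly6Chigh and the 98.1 to 119 CPM of Ly6Clow monocytes. The log2 fold changes were 1.06 ± 0.29 (adjusted p = 0.0124 by edgeR) and 0.88 ± 0.28 (adjusted p = 0.0304). In macrophages they lay between -0.11 and 0.39. The call against Ly6Chigh monocytes was lost without glioma monocytes of mouse 24 (0.79, adjusted p = 0.113 by edgeR), Ly6Chigh monocytes of mouse 23 (adjusted p = 0.0789) or those of mouse 24 (adjusted p = 0.0590), and that against Ly6Clow monocytes without glioma monocytes of mouse 24 (0.66, adjusted p = 0.156), Ly6Clow monocytes of mouse 22 (adjusted p = 0.0815) or those of mouse 23 (adjusted p = 0.0658).

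*Nfkbiz*, which encodes the nuclear IκB protein IκBζ, showed the largest fold change of the 10 genes against Ly6Chigh monocytes. It measured 15.7, 8.20 and 24.2 CPM in Ly6Chigh monocytes and 69.3, 27 and 46.2 CPM in Ly6Clow monocytes of mice 22, 23 and 24. GFPneg glioma monocytes held 417, 393 and 857 CPM, and the 8 replicates of GFPneg macrophages held 124 to 318 CPM, all above all 6 blood replicates. The log2 fold changes for glioma monocytes, CCR2high and CCR2low macrophages were 5.07 ± 0.74, 3.90 ± 0.69 and 3.70 ± 0.68 against Ly6Chigh monocytes (adjusted p = 2.07e-05, 0.000156 and 0.000233 by edgeR). Against Ly6Clow monocytes they were 3.55 ± 0.68, 2.38 ± 0.63 and 2.18 ± 0.62 (adjusted p = 0.000510, 0.00744 and 0.0127 by edgeR). The last 2 calls were lost without Ly6Clow monocytes of mouse 23 (2.08, adjusted p = 0.0513 by edgeR, and 1.88, adjusted p = 0.0747).

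*Tnfaip3* rose in the same 6 comparisons. Ly6Chigh monocytes held 14, 32.8 and 49.5 CPM in mice 22, 23 and 24 and Ly6Clow monocytes 9.91, 0 and 18.3 CPM, where the 0 allows up to 3 counts. In GFPneg glioma monocytes the values were 498, 485 and 1065 CPM in mice 22, 24 and 26. GFPneg CCR2high macrophages held 241 to 378 CPM and GFPneg CCR2low macrophages 189 to 407 CPM, far above either blood population. Against Ly6Chigh monocytes the log2 fold changes were 4.39 ± 0.76, 3.21 ± 0.70 and 3.14 ± 0.70 (adjusted p = 0.000183, 0.00174 and 0.00188 by edgeR). Against Ly6Clow monocytes they were 6.15 ± 0.84, 4.97 ± 0.78 and 4.90 ± 0.78 (adjusted p = 7.34e-06, 4.37e-05 and 4.73e-05 by edgeR), with no replicate whose removal ended a call. *Bcl3*, the nuclear partner of p50 and p52, was the least abundant of the 10 genes by CPM, at 0 to 33.3 CPM, and was not called in any comparison.

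Counted together, 5 of the 10 genes were called in GFPneg glioma monocytes against Ly6Chigh monocytes (4 higher and 1 lower), beside 13.8% of all genes tested (11.1% higher and 2.68% lower). In GFPneg CCR2high macrophages 4 were called (3 higher, 1 lower) beside 17.8% (12.7% and 5.14%), and in GFPneg CCR2low macrophages 4 (3 higher, 1 lower) beside 20.2% (14.1% and 6.09%). Against Ly6Clow monocytes the counts were 6 (5 higher, 1 lower), 4 (3 higher, 1 lower) and 4 (3 higher, 1 lower), beside 18.5%, 23.1% and 23.4% of all genes (13%, 14.7% and 15% higher, and 5.51%, 8.39% and 8.35% lower). The replicates of 6, 6 and 5 of the 10 genes did not overlap with those of Ly6Chigh monocytes, beside 35.6%, 35.7% and 35.3% of all genes, and those of 8, 4 and 4 with those of Ly6Clow monocytes, beside 27.1%, 26.2% and 24.8%. The median log2 fold change of the 10 genes against Ly6Chigh monocytes was 0.78, 0.31 and -0.11 in the 3 populations, and that of all genes was 0.12, 0.15 and 0.17. These 6 comparisons share their blood and brain replicates. Without mouse 26 the counts were 4, 4 and 4 against Ly6Chigh and 6, 5 and 4 against Ly6Clow monocytes. When the samples were scaled to the spike-in RNAs, 1, 0 and 0 genes were called against Ly6Chigh monocytes and 3, 3 and 2 against Ly6Clow monocytes. The log2 fold changes against Ly6Chigh monocytes stayed of like size with larger errors, such as 2.60 ± 1.07 for *Nfkbia* and 4.23 ± 1.40 for *Tnfaip3* in glioma monocytes, 3.65 ± 1.25 for *Nfkbiz* and -2.33 ± 0.81 for *Nfkb1* in CCR2high macrophages.

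**Figure D2:**
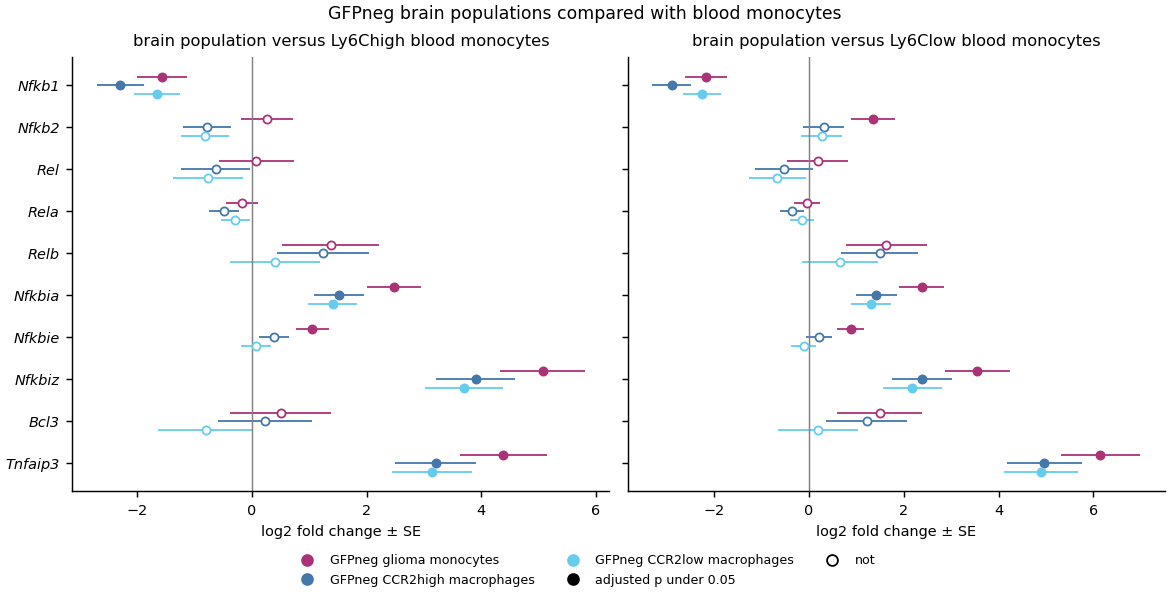
Points are log2 fold changes of the 10 genes in the 3 GFPneg brain populations against Ly6Chigh (left) or Ly6Clow (right) blood monocytes, and bars are 1 standard error of the fit over all 28 replicates. Filled points passed an adjusted p of 0.05; *Nfkbia*, *Nfkbiz* and *Tnfaip3* lie to the right of 0 and *Nfkb1* to the left in all 6 comparisons.

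Other parts of the pathway were counted from lists fixed with earlier results of these data known. For each list here and below, the shares of all genes called are those given above. Against Ly6Chigh monocytes 11.1%, 12.7% and 14.1% were higher and 2.68%, 5.14% and 6.09% lower in the 3 GFPneg brain populations. Against Ly6Clow monocytes 13%, 14.7% and 15% were higher and 5.51%, 8.39% and 8.35% lower. Of 16 upstream kinases and adaptors, 2, 2 and 4 were lower and 0 higher in GFPneg glioma monocytes, CCR2high and CCR2low macrophages than in Ly6Chigh monocytes. The IκB kinase subunit *Ikbkb* averaged 179 ± 21.9 CPM in glioma and 382 ± 92.1 CPM in Ly6Chigh monocytes (n = 3 each), a log2 fold change of -1.09 ± 0.26 (adjusted p = 0.00479 by edgeR), and the receptor-proximal kinase *Irak4* showed one of -1.04 ± 0.31 (adjusted p = 0.0257). Against Ly6Clow monocytes the list was mixed, with 2 higher and 2 lower, 1 higher and 3 lower, and 1 higher and 4 lower.

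Of 12 other IκB proteins and feedback regulators, 6 rose in GFPneg glioma monocytes against Ly6Chigh monocytes and none fell. *Ier3*, an early response gene, went from 13.1 ± 4.26 to 1280.4 ± 216 CPM (log2 fold change 6.63 ± 0.42, adjusted p = 2.66e-11 by edgeR). *Nfkbid*, a further nuclear IκB gene, rose by 3.58 ± 0.88 on the log2 scale (adjusted p = 0.00620) and the adaptor *Traf1* by 2.82 ± 0.75 (adjusted p = 0.0109). In CCR2high macrophages 4 of the 12 rose and 2 fell, and in CCR2low macrophages 3 rose and 1 fell. Across all genes, 12.7% were higher and 5.14% lower in CCR2high, and 14.1% and 6.09% in CCR2low macrophages. The median of the list was 1.05, 0.40 and 0.15 in the 3 populations.

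Of 18 genes widely used as NF-kB targets, 16 rose in GFPneg glioma monocytes against Ly6Chigh monocytes, 14 in CCR2high and 13 in CCR2low macrophages, and none fell. Against Ly6Clow monocytes 18, 15 and 10 rose. The chemokine genes *Cxcl2* (858 ± 960.4 CPM) and *Cxcl1* (194 ± 297 CPM) and the cytokine gene *Il1a* (425 ± 279 CPM) were called higher in glioma monocytes (adjusted p = 3.54e-05, 0.0163 and 9.58e-08 by edgeR) and were at 0 in all 3 Ly6Chigh replicates. With a floor of 3 counts per library in blood, they were at least 632-fold, 143-fold and 314-fold higher. Mouse 26 was the highest replicate for all 3, with 536 CPM of *Cxcl1* beside 8.57 and 36.6 CPM in the other mice, and without it, a choice made after seeing the data, the bounds were 227-fold for *Cxcl2*, 16.7-fold for *Cxcl1* and 195-fold for *Il1a*. With the 5 genes at 0 in Ly6Chigh monocytes set to that bound, the median log2 fold change of the 18 was 5.12 in glioma monocytes, 4.24 in CCR2high and 3.68 in CCR2low macrophages.

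Immediate-early and heat-shock genes respond within minutes to cell handling as well as to signals in the tissue. A list of 12 of them had its higher levels in the brain, as did *Nfkbia*, *Nfkbiz* and *Tnfaip3*. Its summed level was 1499 to 2717 CPM in the 6 blood replicates and 5745 to 23251 CPM in the 22 brain replicates, and none of its genes was at 0 throughout either compartment. Against Ly6Chigh monocytes 10, 8 and 7 of the 12 were called higher in the 3 GFPneg brain populations, none lower. *Fosb* averaged 61.3 CPM in glioma and 0.335 CPM in Ly6Chigh monocytes, the phosphatase gene *Dusp1* 794 and 43.8 CPM, and *Egr1* 175 and 11 CPM. The part of this list in the results for *Nfkbia*, *Nfkbiz* and *Tnfaip3* was not tested.

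**Figure D3:**
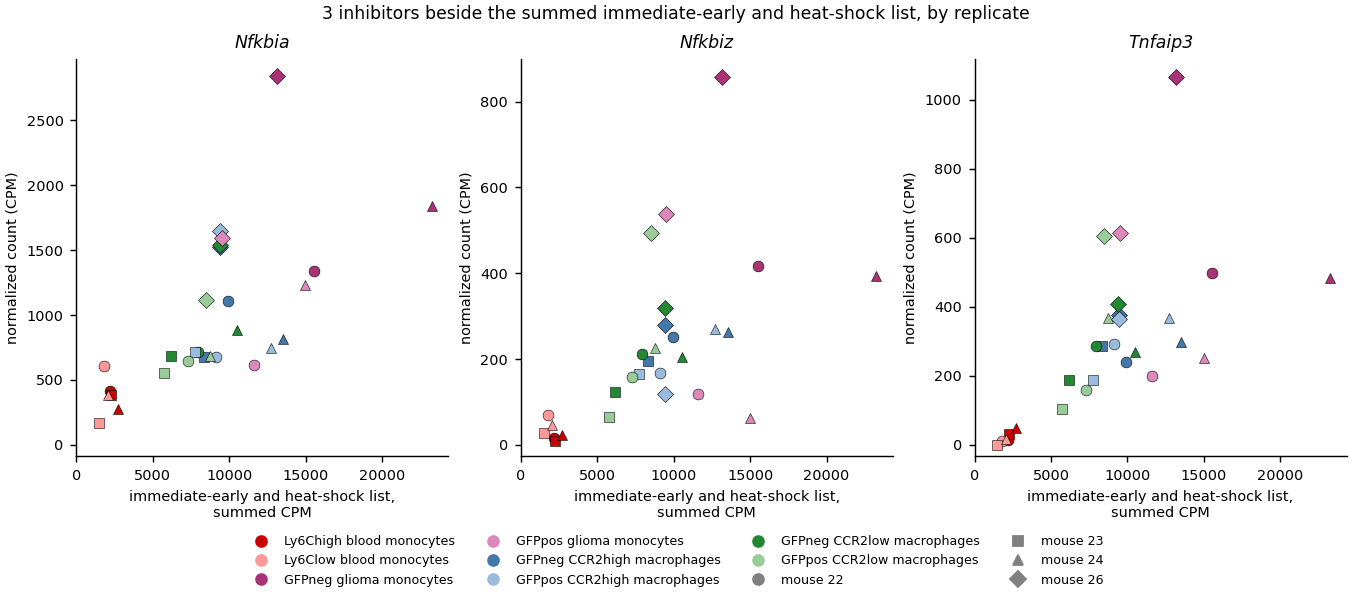
Each point is a replicate, with the summed CPM of the 12 immediate-early and heat-shock genes on the x axis and the CPM of *Nfkbia*, *Nfkbiz* or *Tnfaip3* on the y axis (linear axes), colored by population and shaped by mouse. The blood replicates lie at the lower left, below 2717 CPM on the x axis, and the replicate of GFPneg glioma monocytes of mouse 26 is the highest point in each panel.

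Markers of other cells also differed between the compartments. Of 6 microglia markers, *Sall1* and *Siglech* were at 0 in all 6 blood replicates, and the summed list was 0.943 to 57.4 CPM in blood and 1066 to 6581 CPM in brain, although the sort had set microglia aside by their lower CD45 and CD11b. Summed neutrophil markers (7 genes) ran from 143 to 1018 CPM in blood and from 6.56 to 2766 CPM in brain. Summed neural markers (7 genes, with *Gfap*, *Aqp4* and *Slc1a2* at 0 in blood) ran from 226 to 621 CPM in blood and from 43.4 to 173 CPM in brain, and B cell markers (5 genes) from 64.8 to 505 and from 51.6 to 998 CPM. All 6 T and NK cell markers were called higher in each of the 3 GFPneg brain populations than in Ly6Chigh monocytes, with sums of 17 to 107 CPM in Ly6Chigh monocytes and 343 to 1206 CPM in the GFPneg brain populations. Against Ly6Clow monocytes (674 to 1109 CPM) 0, 1 and 0 were called higher and 0, 1 and 0 lower. Of 6 dendritic cell markers, 2, 3 and 1 were called higher and 0, 0 and 2 lower than in Ly6Chigh monocytes. Of all genes, 11.1%, 12.7% and 14.1% were higher and 2.68%, 5.14% and 6.09% lower. The dendritic markers summed to 100.2 to 219 CPM in Ly6Chigh monocytes and to 195 to 723 CPM in the GFPneg brain populations. The part of these marker lists in the results was not tested.

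Within the blood, the 2 kinds of monocyte did not differ in any of the 10 genes at the threshold (0 called by edgeR, 3 at an unadjusted p under 0.05, and 0 called by DESeq2), beside 5.61% of all genes (1.96% higher in Ly6Chigh and 3.65% lower). The 3 were *Nfkb2*, at 171 to 189 CPM in Ly6Chigh and 47.6 to 126 CPM in Ly6Clow monocytes, *Nfkbiz*, at 8.20 to 24.2 and 27 to 69.3 CPM, and *Tnfaip3*, at 14 to 49.5 and 0 to 18.3 CPM. The replicates of *Nfkb2* and *Nfkbiz* did not overlap, as was so for 17.8% of all genes. An unadjusted p under 0.05 was reached by 2527 of all 11566 genes between the blood populations. With the mouse as a block, *Tnfaip3* was called higher in Ly6Chigh monocytes (log2 fold change 1.91, adjusted p = 0.0420 by edgeR), and without Ly6Clow monocytes of mouse 24 both *Tnfaip3* (2.85, adjusted p = 0.0251) and *Nfkb2* (1.56, adjusted p = 0.0367) were. Summed markers of dendritic cells were 100.2 to 219 CPM in Ly6Chigh and 578 to 1895 CPM in Ly6Clow monocytes, and those of T and NK cells 17 to 107 and 674 to 1109 CPM. Their part in these values was not tested.

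Within the brain, GFPneg glioma monocytes had the higher fitted level of all 10 genes against GFPneg CCR2high and against GFPneg CCR2low macrophages, but no gene was called in either comparison (0 by edgeR), beside 0.182% and 1.21% of all genes. At an unadjusted p under 0.05 there were 3 and 4 of the 10, beside 622 and 978 of all 11566 genes. DESeq2 called 0 and 1 of the 10. The median log2 fold change of the 10 genes was 0.72 and 1.03, and that of all genes was 0.01 and -0.04. *Nfkbie* came nearest to the threshold, with 160.0 to 255 CPM in glioma monocytes against 78.6 to 126 CPM in CCR2low macrophages, and a log2 fold change of 0.99 ± 0.26 (adjusted p = 0.0627 by edgeR). It was called with the mouse as a block (0.98, adjusted p = 0.0209 by edgeR) and by DESeq2 (0.94, adjusted p = 0.0130). The replicates of 4 and 5 of the 10 genes did not overlap, beside 11.7% and 13.8% of all genes. These were *Nfkb2*, *Nfkbie*, *Nfkbiz* and *Tnfaip3* in both comparisons, and *Bcl3* against CCR2low macrophages. The log2 fold changes were 1.17 ± 0.57 and 1.37 ± 0.57 for *Nfkbiz* and 1.18 ± 0.61 and 1.25 ± 0.61 for *Tnfaip3*.

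The summed immediate-early and heat-shock list was 13147 to 23251 CPM in GFPneg glioma monocytes, 8334 to 13534 CPM in CCR2high and 6173 to 10520.2 CPM in CCR2low macrophages, and microglia markers summed to 1066 to 2172, 1322 to 3242 and 1913 to 6581 CPM. Neither was tested for its part in these differences. GFPneg CCR2high and CCR2low macrophages differed from each other in none of the 10 genes (0 called by edgeR and by DESeq2, 0 at an unadjusted p under 0.05), beside 0% of all genes (3.13% did not overlap), and the same comparison of GFPpos macrophages gave 0 called by edgeR and by DESeq2 and 1 at an unadjusted p under 0.05, *Nfkbie*, at 123 to 156 CPM in CCR2high and 64.9 to 115 CPM in CCR2low macrophages, which do not overlap (as for 2.68% of all genes). Of all 11566 genes, 276 had an unadjusted p under 0.05 between the GFPneg and 171 between the GFPpos macrophages.

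Among GFPpos cells, glioma monocytes and macrophages differed in none of the 10 genes by edgeR, beside 0.0173% of all genes for CCR2high and 0.164% for CCR2low macrophages (0 and 1 gene at an unadjusted p under 0.05, and 0 and 1 called by DESeq2). Across all 11566 genes, 673 and 766 had an unadjusted p under 0.05, and 5.7% and 8.08% did not overlap. The 1 was again *Nfkbie*. Its values were 204, 253 and 109.6 CPM in glioma monocytes of mice 22, 24 and 26 and 107, 115, 79.3 and 64.9 CPM in CCR2low macrophages, a log2 fold change of 1.04 ± 0.26 (adjusted p = 0.145 by edgeR). It was called with the mouse as a block (1.03, adjusted p = 0.0455 by edgeR), by DESeq2 (0.96, adjusted p = 0.0339) and without glioma monocytes of mouse 26 (1.32, adjusted p = 0.0123 by edgeR). With only the first or only the second library of mouse 22, its log2 fold change was 1.05 and 0.95.

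The question of what uptake of tumor membrane goes along with was addressed by comparing GFPpos with GFPneg cells of each kind. No gene of the 10 was called in glioma monocytes, CCR2high or CCR2low macrophages (0 by edgeR and 0 by DESeq2 in each), beside 0% of all genes, and 1, 0 and 0 passed an unadjusted p under 0.05. Of all 11566 genes, 739, 69 and 184 passed it. In glioma monocytes the GFPpos values were the lower ones for 9 of the 10 genes, with a median log2 fold change of -0.76 (-0.65 with the first and -0.92 with the second library of mouse 22 alone). The replicates of 2 of the 10 genes, *Nfkb2* and *Relb*, did not overlap there, beside 13.6% of all genes. *Nfkb2* measured 48.5, 57.2 and 103 CPM in GFPpos and 201, 298 and 152 CPM in GFPneg glioma monocytes of mice 22, 24 and 26. Its log2 fold change was -1.64 ± 0.46 (adjusted p = 0.638 by edgeR). With the first or the second library of mouse 22 alone this was -1.37 and -1.89. *Nfkbia* was lower in the GFPpos cells in 3 of 3 mice, at 611, 1235 and 1590.0 CPM against 1339, 1836 and 2837 CPM, but the difference of -0.81 ± 0.45 was not called (adjusted p = 0.834 by edgeR), and it was -0.54 with the first and -1.03 with the second library alone. *Nfkb1*, at 0.04 ± 0.43, turned from -0.53 with the first to 0.13 with the second library.

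In macrophages no difference passed the threshold either. *Nfkbia* averaged 947 ± 469 CPM in GFPpos and 1031 ± 375 CPM in GFPneg CCR2high macrophages (SD, n = 4 each), and 749.8 ± 249 and 957 ± 399.9 CPM in CCR2low macrophages. In CCR2low macrophages *Nfkbia*, *Nfkb1* and *Rela* were each lower in the GFPpos cells in 4 of 4 mice, and none was called with the mouse as a block. The largest differences were -0.45 ± 0.53 in CCR2high macrophages (*Nfkbiz*) and -0.63 ± 0.38 in CCR2low macrophages (*Nfkb1*), on the log2 scale. Whether the difference between GFPpos and GFPneg cells itself differed between the kinds of cell was tested with 3 interaction terms, and no gene of the 10 was called in any of them (0 by edgeR and 0 by DESeq2), beside 0% of all genes. At an unadjusted p under 0.05 there were 1, 1 and 0 of the 10, beside 272, 394 and 84 of all 11566 genes. The 1 was *Nfkb2* each time, with interaction terms of -1.45 ± 0.60 between glioma monocytes and CCR2high macrophages and of -1.41 ± 0.60 between glioma monocytes and CCR2low macrophages. With the first and the second library of mouse 22 alone these were -1.17 and -1.70, and -1.13 and -1.64.

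**Figure D4:**
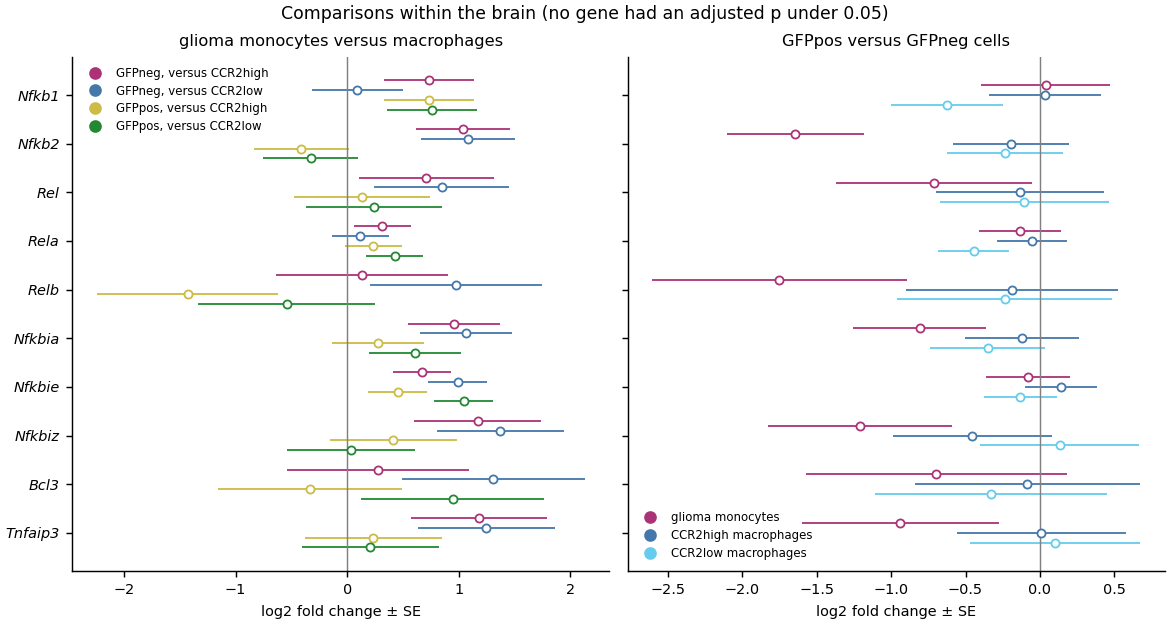
Points are log2 fold changes of the 10 genes with bars of 1 standard error, on the left for glioma monocytes against macrophages with the same GFP state and on the right for GFPpos against GFPneg cells. All points are open, since none passed an adjusted p of 0.05; on the left the GFPneg comparisons lie to the right of 0 for all 10 genes, and on the right *Nfkb2* and *Relb* of glioma monocytes lie farthest to the left.

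To compare levels between genes, CPM was divided by the length of all annotated exons of a gene in kilobases. By this measure *Nfkbia* was the most abundant of the 10 in all 8 populations, from 224 CPM per kb in Ly6Chigh monocytes to 1245 CPM per kb in GFPneg glioma monocytes. It made up 79.9% to 83.2% of the summed level of the 5 inhibitors in the population means, so the rise of *Nfkbiz* and *Tnfaip3* in the brain took place at a small share of the total. *Rela* was next in both blood populations (51.7 and 47.1 CPM per kb), where *Nfkbiz* (3.20 and 9.47 CPM per kb) and *Tnfaip3* (4.45 and 1.30 CPM per kb) were lower. In the GFPneg brain populations *Nfkbiz* was second, at 42.8 to 111 CPM per kb, though its replicates overlapped those of *Tnfaip3* in each. With the longest transcript in place of all exons, *Nfkbia* stayed first in all 8 populations. *Rela* lost its place in Ly6Clow monocytes, where *Nfkb1* was second (82.3 CPM per kb, *Rela* 53.3 CPM per kb). In Ly6Chigh monocytes *Rela* stayed second, at 58.5 CPM per kb beside 54.2 CPM per kb for *Nfkb1*.

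The 5 subunits summed to 128 ± 5.71 CPM per kb in Ly6Chigh monocytes and 129 ± 32.3 CPM per kb in GFPneg glioma monocytes (SD, n = 3 each), while the 5 inhibitors summed to 268 ± 44.3 and 1522 ± 558 CPM per kb. In the other 5 brain populations the subunits summed to 67.9 to 87.1 CPM per kb in the means and to 54.8 to 103 CPM per kb in the replicates, below the Ly6Chigh replicates without overlap. The replicates of Ly6Chigh and GFPneg glioma monocytes overlapped for the subunits (123 to 135 and 109 to 167 CPM per kb) and not for the inhibitors (218 to 303 and 1051 to 2138 CPM per kb). *Nfkb1* contributed 14.5% ± 3.39 of the summed subunit level in Ly6Chigh and 25.8% ± 5.45 in Ly6Clow monocytes, and 4.46% to 8.32% in the means of the 6 brain populations. By all exons, *Rela* contributed 35.7% to 54% in the means of the 8 populations. The subunit sums and both shares depend on the length used, since the annotated exons of *Nfkb1* total 12061 bases and its longest transcript 4149 bases. *Nfkb1* was at 18.7 CPM per kb in Ly6Chigh and 6.29 CPM per kb in GFPneg glioma monocytes by all exons. By the longest transcript it was at 54.2 and 18.3 CPM per kb. The sums and shares were not taken with that length, so the near-equal subunit sums hold for all exons only.

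**Figure D5:**
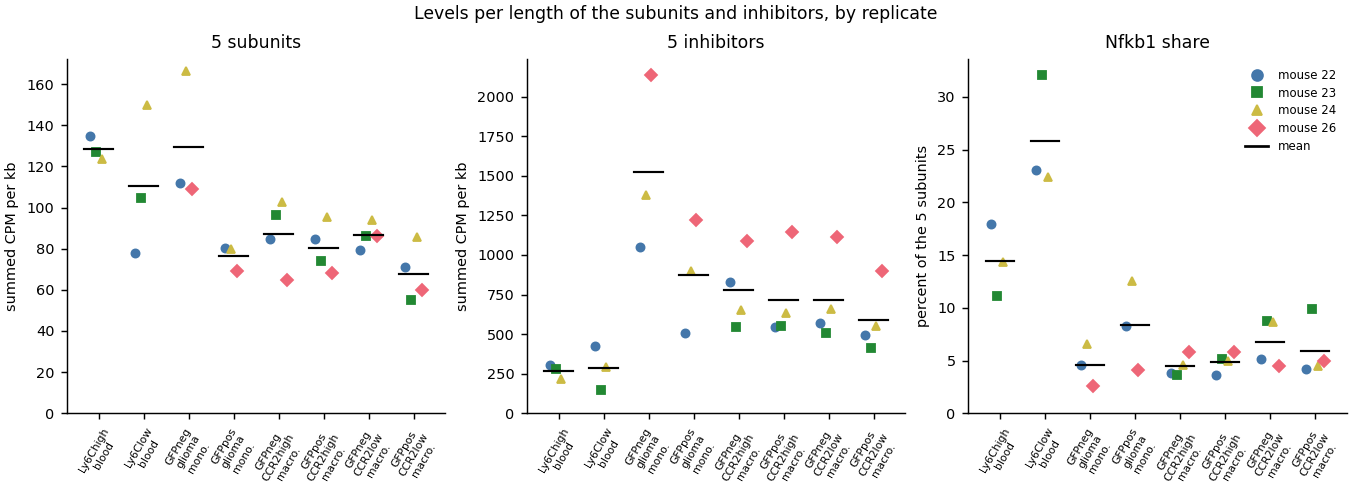
Summed CPM per kb of all exons is plotted for the 5 subunits (left) and the 5 inhibitors (middle), for each replicate by population. The right panel plots the percent of the subunit sum that is *Nfkb1*, and lines mark the means. The inhibitors reach 427 CPM per kb in blood and run from 411 to 2138 CPM per kb in brain, and the *Nfkb1* share runs from 11.1% in blood and up to 12.6% in brain, so each overlaps narrowly.

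Over the 22 brain replicates, which share mice and preparation, some of the 10 genes varied together. The closest pair was *Nfkbiz* and *Tnfaip3*, with a Pearson r of 0.86 between their log2 CPM, followed by *Rel* and *Nfkbia* (0.83), *Nfkbia* and *Tnfaip3* (0.79) and *Nfkb2* and *Relb* (0.70). *Nfkb1* ran opposite to *Nfkbiz* (r = -0.42). By the same measure, the genes most like *Nfkbia* among those with a mean of at least 10 CPM were *Csrnp1* (0.94), *Ppp1r15a* (0.94) and *Nr4a1* (0.94). Those most like *Tnfaip3* were *Ets2* (0.84), *Tiam2* (0.81) and *Fem1c* (0.81), and *Ets2* was also first for *Nfkbiz* (0.89). *Rel* was most like the heat-shock gene *Hspa1a* (0.93), and *Nfkb2* most like the immediate-early gene *Ier2* (0.88). *Nfkbie* was most like the kinase gene *Fgr* (0.92), *Relb* most like *Ripk1* (0.92), which encodes a kinase of the TNF receptor pathway, and *Rela* most like *Coro1a* (0.82). *Nfkb1* reached 0.85 with *A130071D04Rik* and *Bcl3* 0.80 with *Golph3*. These values describe the 22 replicates and carry no test.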

How the data were processed

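RNA had been sequenced from 8 sorted populations of 4 mice with reads of 75 bp. The authors used STAR for alignment to mm10, Picard (1.8.4 per the labels) to remove duplicates and HTSeq to count reads per gene of a Gencode annotation. The deposited values are raw counts for 30 libraries, without normalization. Duplicate removal lowers the counts of the most abundant genes, and reads on overlapping genes (1.58% to 1.9%) or on no gene (6.28% to 17.4%) were left out of library sizes. A strand setting of the counting is not given in the sources used here.

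Of the 30 libraries, 1 had fewer than 6000 genes with at least 5 reads, the authors' rule, and was left out, and a pair from 1 replicate was summed. This gave 28 replicates. Every column was used (0 columns unused). Tests used edgeR 4.0.16 in R 4.3.3, with filterByExpr, TMM scaling and the robust quasi-likelihood test in 1 fit over all 8 populations (11566 genes), with calls made where the p adjusted by Benjamini-Hochberg was under 0.05. SE is the log2 fold change divided by the root of F. For CPM, counts were scaled to 1000000 reads of the library size after TMM, with 2 as prior count on the log2 scale. The same script was tested on simulated data. Alternatives were DESeq2 1.42.0, its size factors, the 92 spike-in RNAs as scale, other filters (at least 1 count in all or 10 in every replicate), only the compared populations, the mouse as a block, each repeat library alone, the failed library added, and each replicate left out.

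The same mouse number marks the same animal. The deviations of same-numbered samples from their population means correlated at a median of 0.14 (-0.10 to 0.67 over 86 pairs, 47 of them over 0.1). The 10 genes and all lists were chosen with earlier results of these data known. Named beside the 10 are, by rule, the 3 genes of each list with the largest change among those called in GFPneg glioma monocytes against Ly6Chigh monocytes, and for each of the 10 the genes most correlated with it. Limits on counts of 0 (3 counts, at 95% confidence) cover counting error only. Marker lists of other cell types are given beside the results. Leaving mouse 26 out of every population was an alternative chosen after seeing the data.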

Additional observations from a re-analysis of the deposited data

Results flagged for a closer look

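In the 40 sets of 4 macrophage replicates (10 genes in 4 populations), 2 held a replicate far from the others by Dixon's test, which chance does in about 1 of 20 sets. *Nfkbia* in GFPpos CCR2high macrophages was 1.65e+03 CPM in mouse 26, beside 743 CPM in the next replicate, and *Bcl3* in GFPneg CCR2high macrophages was 33.3 CPM in mouse 24, beside 8.20 CPM in the next.

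The library of Ly6Clow monocytes of mouse 23 that failed the quality rule entered no comparison, yet 5 of the 10 genes had more than 3 counts in it. These were *Nfkbia* with 967 counts, *Nfkbie* with 126, *Nfkb1* with 84, *Nfkb2* with 12 and *Rel* with 9. In the library used for that replicate, *Nfkbia* had 432 counts and *Nfkb1* 1049. *Rela* had 0 counts in the failed library and 381 in the other.

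None of the 30 tests of whether the difference between GFPpos and GFPneg cells itself differed between kinds of cell passed the threshold.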

How the results depend on the processing

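Of the 27 results called against blood, 5 kept their call under every alternative run (*Nfkbiz* in GFPneg glioma monocytes against each blood population and *Tnfaip3* in the 3 GFPneg populations against Ly6Clow monocytes), and none of the 469 values under alternatives turned its direction (408 kept the call and 61 lost it). Scaling to the spike-in RNAs moved the median of all genes, by 1.69 between the blood populations, and left 1, 0 and 0 of the 10 genes called in GFPneg glioma monocytes, CCR2high and CCR2low macrophages against Ly6Chigh monocytes (5, 4 and 4 by TMM) and 3 and 2 in glioma monocytes and CCR2low macrophages against Ly6Clow monocytes (6 and 4). The cause was not tested. When other populations were kept out of the fit, 2 were called in glioma monocytes against Ly6Clow monocytes, where the lost calls kept their size (*Nfkb1* -2.19 and *Nfkbia* 2.35 on the log2 scale), and 1 (*Nfkb2*) against CCR2low macrophages. In that setting *Nfkbia* was also lost in CCR2high and CCR2low macrophages against Ly6Clow monocytes (adjusted p = 0.0951 and 0.164 by edgeR) and *Nfkb2* was gained in CCR2low macrophages against Ly6Chigh monocytes (adjusted p = 0.0109), as was *Relb* in glioma monocytes. With the mouse as replicate block, 1 gene was called between the blood populations (*Tnfaip3*, adjusted p = 0.0420 by edgeR), and 1 (*Nfkbie*) between glioma monocytes and CCR2low macrophages among GFPneg and among GFPpos cells, as by DESeq2 in both and, among GFPneg cells, with at least 10 counts in every replicate. The block changed no other call. With the loosest filter (at least 1 count in all), *Nfkbie* lost its calls in glioma monocytes against Ly6Chigh and Ly6Clow monocytes (adjusted p = 0.0550 and 0.0869 by edgeR). *Nfkbia* lost those in CCR2low macrophages against the same 2 populations (adjusted p = 0.0634 and 0.0684). Leaving out 1 replicate at a time gave 0 to 2 genes called between the blood populations, 4 to 4, 3 to 4 and 3 to 4 against Ly6Chigh monocytes, 4 to 6, 2 to 4 and 2 to 4 against Ly6Clow monocytes, and 0 to 1 between GFPpos glioma monocytes and CCR2low macrophages. *Tnfaip3* was not tested with at least 10 counts in every replicate, since 1 Ly6Clow replicate held 0. Depth limits *Bcl3* and the blood values of *Tnfaip3* most, where a count of 0 allows up to 3 counts.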
